A study of Homo sapiens with 12 samples.

Results

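The comparison set RNA of SK-N-SH cells transfected with an siRNA against SUV39H1 (siSUV39H1) against RNA of the same cells transfected with a control siRNA (siNC), with 3 libraries in each group. All 18739 genes of the joined tables were members, of which 15051 passed a filter on low counts and were tested and 3688 did not pass. SK-N-SH is an established human neuroblastoma line, grown here in MEM with fetal bovine serum. The genotype label is SUV39H1-knockdown for the siSUV39H1 libraries and wild type (WT) for the siNC and DMSO libraries. The 6 libraries belong to a series of 12 in 4 groups of 3, and the other 2 groups received the solvent DMSO or the compound chaetocin. The treatment label of the DMSO libraries names no siRNA, so the siNC and DMSO groups differ in siRNA, in transfection and in solvent, which cannot be told apart. The submitters' design text names shRNA constructs and biological triplicates, whereas the sample labels name siRNAs, and the labels are followed. No culture, clone or day is named for a library, so p-values measure the spread between these libraries.

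SUV39H1 is a histone methyltransferase that places the trimethyl mark on lysine 9 of histone H3 (H3K9), the mark bound by HP1 proteins in silent heterochromatin. A small interfering RNA loads into an Argonaute protein, pairs with its target transcript and leads to its cleavage, so the transcript of the targeted gene is the first readout of such an experiment. The guide strand can also lower other transcripts whose 3′ untranslated region (3′ UTR) pairs with only the short seed near its 5′ end. Neuroblastoma arises from the sympathetic lineage, and its cells carry a noradrenergic or a mesenchymal gene program, of which SK-N-SH is known to hold both.

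Total expected counts lay between 19595821 and 19687556 in the siSUV39H1 libraries and between 19748841 and 19875841 in the siNC libraries. Noradrenergic markers were present: PHOX2A averaged 99.5 CPM with siSUV39H1, 95.2 CPM with siNC and 234 CPM with DMSO (CPM, counts relative to the library total, scaled by the TMM method). The mesenchymal marker VIM averaged 6838 CPM with siSUV39H1, 6993 CPM with siNC and 9687 CPM with DMSO. TH, which encodes the first enzyme of catecholamine synthesis, did not pass the filter on low counts. Libraries of a group differed along an axis of transcript length and base composition. Across 14428 genes, the rank correlation of a difference between libraries with transcript length was 0.17 for siSUV39H1 minus siNC, and between −0.35 and 0.14 for pairs of siSUV39H1 libraries and between −0.52 and 0.43 for pairs of siNC libraries. With GC content it was −0.10 for siSUV39H1 minus siNC, −0.37 for siSUV39H1 minus DMSO and −0.36 for siNC minus DMSO. Between libraries of 1 group it lay between −0.45 and 0.61 for siSUV39H1 and between −0.31 and 0.42 for siNC. These are descriptions across genes, which are not independent replicates.

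The knockdown lowered its target. SUV39H1 (chromosome X, 48695554 to 48709016, hg38) was at 5.73, 6.07 and 5.48 CPM in the siSUV39H1 libraries, at 18.7, 17.0 and 16.7 CPM in the siNC libraries and at 20.3, 19.6 and 24.6 CPM in the DMSO libraries. All 3 siSUV39H1 values lay below all others, and the DMSO values lay above those of both siRNA groups. The log2 change against siNC was −1.60 ± 0.11 (SE), a 3.03-fold lower level (edgeR quasi-likelihood test, adjusted p = 5e-08). The rounded counts behind it were 342 with siSUV39H1 and 1015 with siNC over 3 libraries each. An exact two-sided permutation test of the 6 libraries gave p = 0.1, the smallest that 3 against 3 allows. SUV39H2, the paralog that places the same mark, was at 7.41, 8.87 and 6.53 CPM with siSUV39H1, at 5.75, 5.00 and 6.75 CPM with siNC and at 8.65, 7.18 and 6.28 CPM with DMSO. The groups overlapped and the change of 0.38 ± 0.16 did not pass the test (adjusted p = 0.0771), though without siNC replicate 3 the adjusted p was 0.0398.

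The study's title names AURKA and MCPIP1, the product of ZC3H12A. AURKA, which encodes the Aurora A kinase of the spindle (chromosome 20, 56369390 to 56392215), was at 22.5, 18.4 and 18.7 CPM with siSUV39H1, at 28.9, 30.8 and 29.5 CPM with siNC and at 35.9, 33.4 and 33.2 CPM with DMSO. The groups did not overlap, and the fall against siNC was −0.58 ± 0.10 on the log2 scale (adjusted p = 0.0003). ZC3H12A (chromosome 1, 37474580 to 37484377) encodes a ribonuclease that degrades inflammatory mRNAs. It was at 42.0, 35.8 and 30.4 CPM with siSUV39H1, at 19.3, 17.3 and 17.2 CPM with siNC and at 4.38, 4.72 and 6.07 CPM with DMSO. ZC3H12A rose by 1.01 ± 0.12 against siNC (adjusted p = 1.5e-05), and siNC itself stood 1.83 above DMSO on the same scale.

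**Figure D1:**
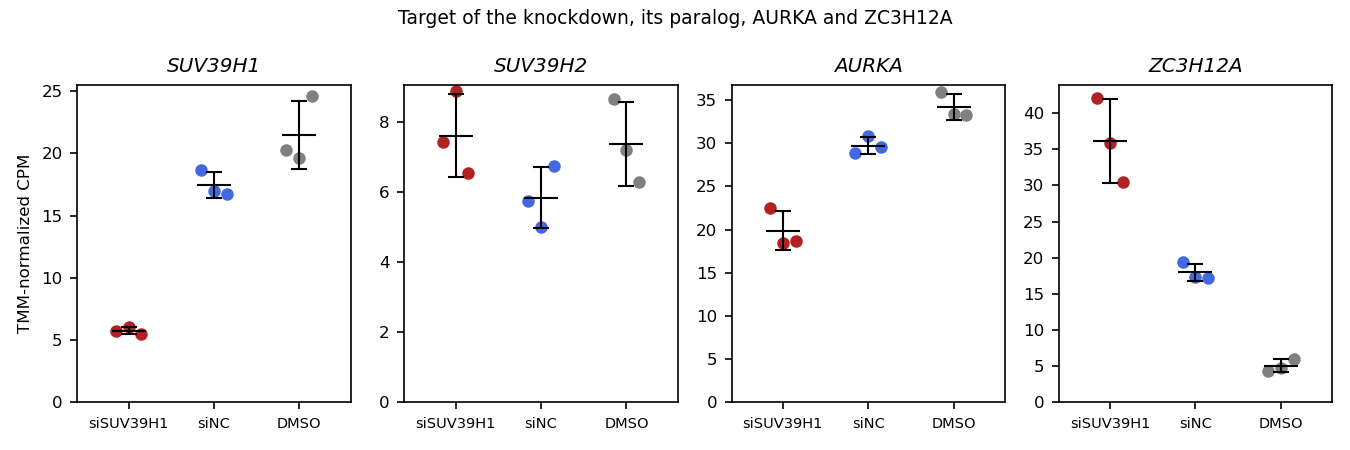
TMM-normalized CPM of SUV39H1, SUV39H2, AURKA and ZC3H12A in each library of siSUV39H1, siNC and DMSO cells (points), with the mean and SD of 3 libraries in black. SUV39H1 sits between 5.48 and 6.07 CPM with siSUV39H1 and above 16 CPM elsewhere, while ZC3H12A is at most 6.07 CPM with DMSO.

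Of the 15051 genes tested, 5109 (33.9%) were called between siSUV39H1 and siNC at an adjusted p under 0.05. The siSUV39H1 level was higher for 2310 of them (15.3%) and lower for 2799 (18.6%). With limma on the deposited TPM the split turned to 3318 higher and 1941 lower, and with library totals as the only scaling it was 2800 higher and 2549 lower. Most changes were small, with a median size of 0.25 on the log2 scale over all genes tested, and 172 genes (1.14%) were called with at least a 2-fold rise and 340 (2.26%) with at least a 2-fold fall. DMSO differed from both siRNA groups as widely. Against DMSO, 7251 genes (48.2%) were called for siSUV39H1, of which 3358 (22.3%) were higher and 3893 (25.9%) lower. For siNC against DMSO, 5293 genes (35.2%) were called, 2552 higher (17%) and 2741 lower (18.2%). The 3 contrasts share libraries, so they are given side by side and no agreement between them is drawn.

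PRSS35 (chromosome 6, 83512534 to 83525704), a secreted protein of the serine protease family, was at 34.4, 34.1 and 34.2 CPM with siSUV39H1, at 5.81, 6.42 and 6.75 CPM with siNC and at 16.1, 16.2 and 20.7 CPM with DMSO. Its rise of 2.43 ± 0.11 was the largest of the 12 largest rises, and DMSO lay between the siRNA groups. CYP1B1 (chromosome 2, 38067509 to 38076151), a cytochrome P450 induced by the aryl hydrocarbon receptor, was at 22.02, 31.1 and 30.3 CPM with siSUV39H1, at 7.31, 5.69 and 8.56 CPM with siNC and at 11.7, 13.4 and 11.9 CPM with DMSO (1.95 ± 0.17). CBLN2, a cerebellin that binds neurexins at synapses, was at 24.4, 22.8 and 25.6 CPM with siSUV39H1, at 7.26, 8.27 and 6.95 CPM with siNC and at 11.3, 10.7 and 10.1 CPM with DMSO (1.70 ± 0.11). For all 3 genes the DMSO libraries lay between the siRNA groups without touching either.

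TPM4 (chromosome 19, 16067538 to 16103002), a tropomyosin of the non-muscle actin cytoskeleton, was the most abundant of the 12. It was at 939, 894 and 872 CPM with siSUV39H1, at 273, 276 and 291 CPM with siNC and at 794, 738 and 694 CPM with DMSO (1.69 ± 0.07). The DMSO level of TPM4 was thus much nearer to siSUV39H1 than to siNC, and the log2 difference of siSUV39H1 from DMSO was 0.28. STX12, a SNARE protein of recycling endosomes, was at 64.6, 71.5 and 63.7 CPM with siSUV39H1, at 20.8, 21.3 and 21.4 CPM with siNC and at 44.4, 42.2 and 41.4 CPM with DMSO (1.65 ± 0.07). CHST14, a sulfotransferase that modifies dermatan sulfate, was at 179, 152 and 162 CPM with siSUV39H1, at 57.4, 58.0 and 53.4 CPM with siNC and at 127, 138 and 146 CPM with DMSO (1.54 ± 0.08). HABP4, an RNA-binding protein, rose by 1.62 ± 0.07 and DMSO lay between, at 59.9 to 66.2 CPM. Reads of HABP4 and CDC14B, which overlap in the annotation, may not be separable.

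Among the 12 were 3 genes whose DMSO values overlapped those with siSUV39H1, so that siNC was the group apart. OGFR, the opioid growth factor receptor, was at 78.1, 67.1 and 75.1 CPM with siSUV39H1, at 23.0, 25.6 and 23.6 CPM with siNC and at 68.3, 76.6 and 87.0 CPM with DMSO. BICD2, which links cargo to the dynein motor, was at 52.2, 47.5 and 51.0 CPM with siSUV39H1, at 17.7, 15.3 and 16.5 CPM with siNC and at 49.7, 43.0 and 41.0 CPM with DMSO. The log2 change of siSUV39H1 against siNC was 1.61 ± 0.09 for each of them, against −0.08 for OGFR and 0.17 for BICD2 when siSUV39H1 was set against DMSO. ZNF664, a zinc finger gene that shares sequence with the readthrough gene ZNF664-RFLNA and is uncertain for that reason, was the other of the 3 (1.57 ± 0.10).

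DMSO lay below both siRNA groups for the last 2 of the 12. ELF3, an ETS factor of epithelia that inflammatory signals induce, was at 19.3, 15.9 and 13.6 CPM with siSUV39H1, at 5.29, 5.95 and 6.20 CPM with siNC and at 0.317, 0.577 and 0.580 CPM with DMSO (1.48 ± 0.14). The 3 groups of ELF3 did not overlap. LGSN, the lens protein lengsin, was at 6.36, 11.8 and 7.59 CPM with siSUV39H1, at 2.59, 2.05 and 2.72 CPM with siNC and at 1.79, 1.31 and 1.48 CPM with DMSO (1.80 ± 0.22). LGSN overlaps PTP4A1 in the annotation.

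The largest fall was that of NPTX1 (chromosome 17, 80466834 to 80476607), a neuronal pentraxin that gathers glutamate receptors at synapses. It was at 2.57, 2.69 and 2.26 CPM with siSUV39H1, at 22.6, 22.2 and 23.6 CPM with siNC and at 5.65, 6.92 and 4.54 CPM with DMSO. The 9.06-fold lower level (−3.18 ± 0.15) was measured against a siNC level that itself stood 2.0 above DMSO on the log2 scale, while siSUV39H1 stood 1.18 below DMSO. The DMSO libraries of NPTX1 lay between the siRNA groups and did not overlap either.

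The same placing of DMSO held for 6 other large falls described here. TMEM158, a membrane protein raised by Ras signalling, fell by 2.15 on the log2 scale and was at 14.6 to 19.1 CPM with siSUV39H1, at 63.7 to 85.6 CPM with siNC and at 29.7 to 41.1 CPM with DMSO. NCEH1, a cholesterol ester hydrolase, was at 9.04 to 10.2 CPM with siSUV39H1, at 35.0 to 44.5 CPM with siNC and at 19.6 to 24.5 CPM with DMSO (−2.04 ± 0.11). GDF5, a ligand of the BMP family, was at 4.62 to 5.78 CPM with siSUV39H1, at 19.3 to 21.5 CPM with siNC and at 9.34 to 10.7 CPM with DMSO (−1.95 ± 0.13). The remaining 3 were CMTM8 (−2.08 ± 0.21), the orphan receptor gene GPRC5A (−2.03 ± 0.17) and the scaffold gene MPP4 (−1.98 ± 0.11), all at or below 3.27 CPM with siSUV39H1.

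GALNT15 (chromosome 3, 16174680 to 16248224), an enzyme that starts mucin-type O-glycans, was the 1 fall of the 12 with DMSO above both siRNA groups. It was at 2.52, 2.50 and 1.81 CPM with siSUV39H1, at 11.25, 11.16 and 12.2 CPM with siNC and at 14.4, 15.5 and 13.03 CPM with DMSO (−2.34 ± 0.14). IGSF8, an immunoglobulin-domain partner of tetraspanins, was at 28.3, 25.2 and 30.04 CPM with siSUV39H1, at 120, 128 and 114 CPM with siNC and at 106, 118 and 126 CPM with DMSO (−2.12 ± 0.09). For IGSF8 the 2 control groups overlapped and only the siSUV39H1 libraries stood apart. BCL2L12, a BCL2-related gene, had the same pattern (−1.91 ± 0.10), with 7.20 to 8.30 CPM with siSUV39H1, 27.8 to 31.8 CPM with siNC and 24.96 to 28.7 CPM with DMSO. BCL2L12 overlaps IRF3 in the annotation, and the sources used here do not say whether the reads were counted by strand.

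**Figure D2:**
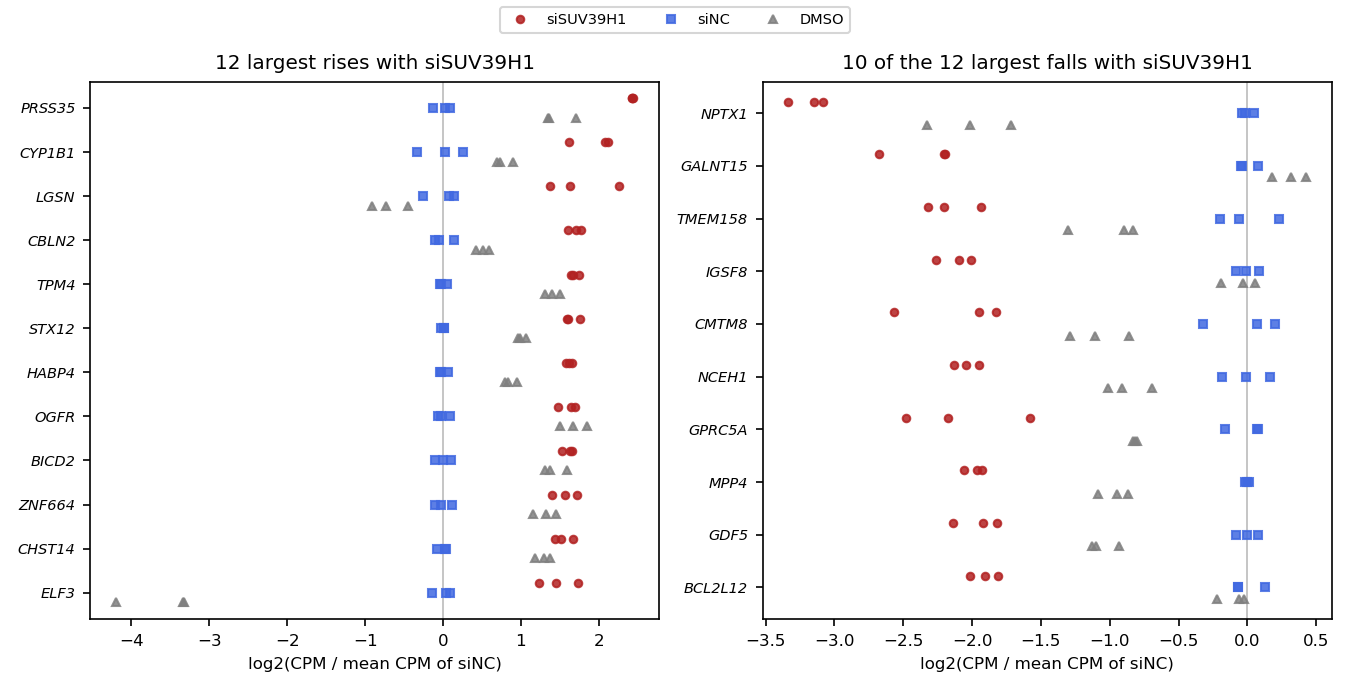
Each point is the log2 ratio of the CPM in 1 library to the mean CPM of siNC for that gene, for the 12 largest rises (left) and 10 of the 12 largest falls (right) taken from called genes that averaged 5 CPM or more and whose siSUV39H1 and siNC libraries did not overlap. DMSO (triangles) lies between the siRNA groups for 7 of the 12 rises and 7 of the 10 falls shown.

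The 6 rises named against both controls were LGSN, CBLN2 and ELF3, given above, with SULT1E1, SAA2 and SAA1. SAA1, an acute-phase protein, was at 15.97, 17.1 and 8.54 CPM with siSUV39H1, at 6.43, 5.53 and 4.58 CPM with siNC and at 0.106, 0.105 and 0 CPM with DMSO (1.33 ± 0.22 against siNC). SAA2, its near-identical neighbour on chromosome 11, was at 6.78, 10.2 and 5.43 CPM with siSUV39H1, at 2.49, 2.63 and 3.17 CPM with siNC and at 0.264, 0.367 and 0.686 CPM with DMSO (1.43 ± 0.22). Reads may be shared between these copies, and SAA2 also overlaps SAA2-SAA4, so neither value is certain on its own. SULT1E1, the estrogen sulfotransferase, was at 12.1, 12.7 and 12.3 CPM with siSUV39H1, at 3.89, 5.16 and 4.69 CPM with siNC and at 4.33, 5.35 and 3.48 CPM with DMSO (1.43 ± 0.15). For SULT1E1 the controls overlapped each other, unlike for the SAA genes, ELF3 and LGSN, where siNC stood above DMSO.

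The falls below both controls named by the same rule were GALNT15, IGSF8 and BCL2L12, given above, with NBL1, NR1H2 and SECTM1. NR1H2, the oxysterol receptor LXR-beta, was at 44.1, 38.1 and 42.3 CPM with siSUV39H1, at 145, 153 and 139 CPM with siNC and at 147, 158 and 166 CPM with DMSO (−1.81 ± 0.07). NBL1, a secreted BMP antagonist that shares sequence with MICOS10-NBL1, was at 8.88, 6.47 and 8.64 CPM with siSUV39H1, at 30.3, 29.4 and 28.6 CPM with siNC and at 27.5, 34.2 and 29.2 CPM with DMSO (−1.88 ± 0.16). SECTM1, a secreted and transmembrane immune protein, was at 5.36, 4.41 and 5.58 CPM with siSUV39H1, at 17.0, 19.3 and 15.9 CPM with siNC and at 17.7, 17.7 and 16.8 CPM with DMSO (−1.77 ± 0.10). In these 3 genes the siNC and DMSO libraries overlapped and the siSUV39H1 libraries lay below both.

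Since an siRNA guide can act through its seed, the 3′ UTRs of 14428 tested genes (GENCODE 29 transcripts, hg38, at least 30 bases) were searched for every 7-base word carried by at least 100 genes. The sources used here give no siRNA sequence, and the words were ranked by the same changes they describe, so what follows is a description with no test. Of 15881 words, GTCTTCA had the lowest mean change of its carriers relative to the other genes (−0.155, 1792 genes) and CGGAGAA the highest (0.181, 329 genes). The 7-base word GTCTTCA was held by 12.4% of all searched genes, by 20.2% of those called lower and by 29.6% of those called at least 2-fold lower, but by 8.19% of those called higher. CGGAGAA was held by 2.28% of all, by 4.31% of those called higher and by 9.04% of those called at least 2-fold higher, but by 1.46% of those called lower. SUV39H1 itself holds the first word 1 time, at bases 1302 to 1308 of a 2978-base transcript, within the coding sequence, and the second word 0 times. The stretches below show the word in capitals, in the coding strand with T for U, in SUV39H1, in AURKA, in LDHA and in 3 of the 12 largest falls that carry it, followed by the second word in the 2 of the 12 largest rises that carry it.
SUV39H1 (coding): tgcaggtgtacaacGTCTTCAta
GALNT15 (3′ UTR): tccattgtaccgttGTCTTCAtc
NCEH1 (3′ UTR): taacttcatgtaaaGTCTTCAct
GPRC5A (3′ UTR): tctttccttctctgGTCTTCAta
AURKA (3′ UTR): gtgctaggcatggtGTCTTCAca
LDHA (3′ UTR): attaatcttgtgtaGTCTTCAac
TPM4 (3′ UTR): caaatattttgtatCGGAGAAgc
CHST14 (3′ UTR): ttctgcctgtcattCGGAGAAac

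The first word was found in the 3′ UTR of 5 of the 12 largest falls (CMTM8, GALNT15, GPRC5A and NCEH1 among them) and in 0 of the 12 largest rises. The second was found in CHST14 and TPM4 among the rises and in 0 of the falls. Other named falls with GTCTTCA in the 3′ UTR included ATF5, ALDH18A1, NOTCH2, DUSP5, LOXL2, STX7, TP53INP1, SECTM1, LIPA and SDHA. Named rises with that word included SYT1, XPC and PRDM2. Long 3′ UTRs hold more words, so carriers were also set against other genes of like 3′ UTR length. Among 3′ UTRs of 30 to 388 bases, 52.8% of 53 carriers of GTCTTCA were called lower, against 20% of 3557 other genes. Among those of 2282 to 32870 bases, 23.9% of 1084 carriers were called lower, against 12.5% of 2521 others. Carriers of GTCTTCA had a median change of −0.10 for siSUV39H1 against siNC, of −0.08 for siSUV39H1 against DMSO and of 0.07 for siNC against DMSO. The medians of CGGAGAA carriers were 0.15, −0.01 and −0.15 in the same contrasts, and those of genes with neither word were 0.02, 0.00 and 0.00. When all 2041 tested genes with either word were left out, an alternative chosen after seeing the data, 4390 of 13010 genes were called. Of these, 2270 were higher and 2120 lower, and the genes called at least 2-fold lower numbered 223. The genes left out included 98 GTCTTCA carriers called at least 2-fold lower in the main fit, so a lower count was set in advance. The fit without carriers scaled the libraries anew on fewer genes, and its median change was 0.041, against 0.011 in the main fit. With upper-quartile scaling of all 15051 genes, the split was 2625 higher and 2608 lower. The part of either siRNA's seed in these changes was not tested.

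**Figure D3:**
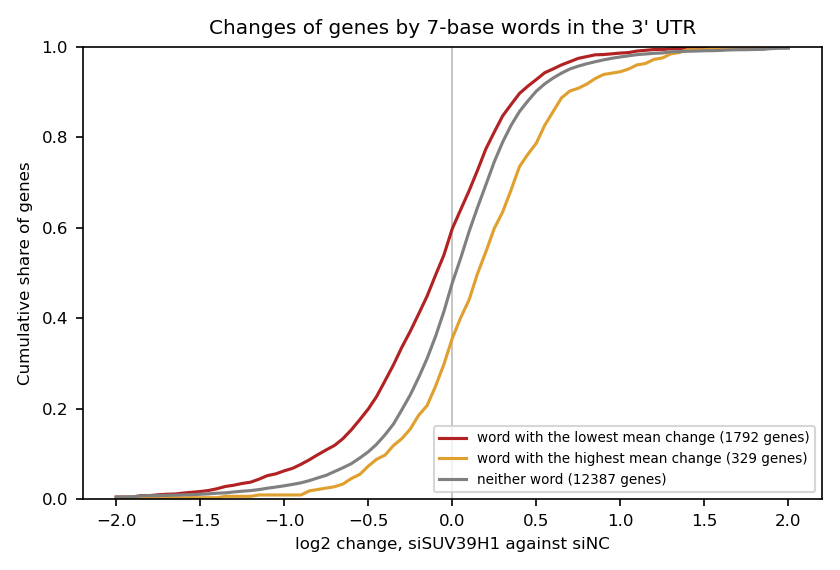
Cumulative share of genes by log2 change of siSUV39H1 against siNC, for genes whose 3′ UTR holds the word of the lowest mean change (1792 genes), the word of the highest mean change (329 genes) or neither (12387 genes). The first curve lies to the left of the genes with neither word over most of its course and the second to the right.

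Genes of the mitotic spindle and kinetochore were lower with siSUV39H1 as a group. Of 44 members tested, 32 fell against siNC and 0 rose, with a median of −0.58, beside 18.6% lower and a median of 0.01 over all genes tested. DMSO was higher still for many: against DMSO, 40 of 44 members were lower with siSUV39H1 (median −1.01), beside 25.9% of all genes tested. With siNC, 26 of 44 were lower than with DMSO (median −0.42), beside 18.2% of all genes tested. In a bulk sample, fewer dividing cells and less of the mitotic RNAs per cell cannot be told apart. The list and all others below were drawn up with earlier results of these data known and are described by counts and medians only.

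CCNA2, the cyclin of S phase and mitotic entry, was at 34.7, 36.2 and 38.8 CPM with siSUV39H1, at 75.1, 73.7 and 77.7 CPM with siNC and at 77.8, 69.4 and 64.6 CPM with DMSO (−1.04 ± 0.08). PLK1, a kinase that drives entry into mitosis, was at 48.7, 37.0 and 44.2 CPM with siSUV39H1, at 81.7, 80.5 and 76.4 CPM with siNC and at 130, 117 and 119 CPM with DMSO (−0.88 ± 0.09). CCNB1, the cyclin partner of CDK1, was at 38.4, 32.8 and 35.1 CPM with siSUV39H1, at 61.1, 62.4 and 56.4 CPM with siNC and at 94.7, 85.8 and 90.5 CPM with DMSO (−0.76 ± 0.08). CCNA2 thus differed from the other cyclin in that its DMSO and siNC libraries overlapped, whereas the groups of PLK1 and CCNB1 were ordered with siSUV39H1 lowest and DMSO highest. The kinesin gene KIF20A had that order too, with 17.4 to 20.4 CPM with siSUV39H1, 33.3 to 35.2 CPM with siNC and 58.9 to 68.6 CPM with DMSO (−0.88 ± 0.08).

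CDK1, the kinase at the centre of mitotic entry, fell by 1.14 on the log2 scale and was at 8.46 to 10.2 CPM with siSUV39H1, at 19.6 to 21.1 CPM with siNC and at 18.8 to 26.8 CPM with DMSO. The separase inhibitor gene PTTG1 fell by 0.99, AURKB, the kinase of the chromosomal passenger complex, by 0.71, and TPX2, the activator of Aurora A on the spindle, by 0.65. FOXM1, a transcription factor of these genes, fell by 0.43, with DMSO at 122 to 149 CPM above siNC at 73.1 to 75.2 CPM and siSUV39H1 at 49.6 to 57.7 CPM. The 12 members that did not pass the test included TOP2A (−0.37 ± 0.18), KIF11 (−0.38 ± 0.23) and TTK (−0.44 ± 0.26) and had a wide spread: siSUV39H1 replicate 1 had 17.7 CPM of TOP2A and the other two 33.4 and 27.4 CPM. Of the 44, 5 hold GTCTTCA in the 3′ UTR (ANLN, AURKA, BIRC5, MAD2L1 and TPX2) and all 5 fell, as did 27 of the 39 others, and both sets had a median change of −0.58. Other lists described below did not share this equality. Medians with and without the word were −0.63 and 0.19 for ATF4 response genes (4 carriers) and −0.47 and −0.10 for DNA replication (5 carriers). They were −0.41 and −0.20 for ribosome biogenesis (4 carriers) and −0.08 and −0.23 for glycolysis (5 carriers). The part of the word in any list was not tested.

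Many mitotic promoters carry the letters TTTGAA, the core of the cell cycle homology region, downstream of CCAAT boxes. In RefSeq promoter windows (250 bases before to 50 after the start, GRCh38.p14, both strands), TTTGAA was present in 71.1% of 38 mitotic members with an entry and in 10.3% of 12164 tested genes, and CCAAT in 78.9% and 36.3% of them. Of the 27 such members called lower, 66.7% held TTTGAA and 81.5% held CCAAT. The windows of CCNA2, KIF20A and CCNB1 hold CCAAT but not TTTGAA. PLK1 is shown because it holds both, with TTTGAA at 29 bases and CCAAT at 73 bases before the start (both in capitals, chr16:23678639-23678938, plus strand).
PLK1 promoter: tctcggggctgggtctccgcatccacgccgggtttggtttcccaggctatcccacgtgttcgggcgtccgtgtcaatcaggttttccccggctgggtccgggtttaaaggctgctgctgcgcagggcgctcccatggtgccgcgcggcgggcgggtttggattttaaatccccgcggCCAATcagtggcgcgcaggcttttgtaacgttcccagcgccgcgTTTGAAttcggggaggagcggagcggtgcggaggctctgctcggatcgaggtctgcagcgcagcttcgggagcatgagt
A match describes the letters of the window and is not evidence of binding.

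DNA replication genes differed less between the siRNAs and more from DMSO. Of 40 members, 14 fell and 1 rose against siNC, with a median of −0.14, whereas 37 of 40 were lower than DMSO with siSUV39H1 (median −0.74) and 35 of 40 with siNC (median −0.54). Over all genes tested, 18.6% fell and 15.3% rose against siNC, and 25.9% were lower than DMSO with siSUV39H1 and 18.2% with siNC. TK1, the thymidine kinase of S phase, was at 29.2, 22.7 and 28.8 CPM with siSUV39H1, at 44.9, 44.5 and 39.1 CPM with siNC and at 70.3, 64.1 and 73.1 CPM with DMSO (−0.67 ± 0.10). RRM2, the small subunit of ribonucleotide reductase, was at 45.1, 44.7 and 45.9 CPM with siSUV39H1, at 61.5, 60.6 and 61.8 CPM with siNC and at 106, 95.2 and 87.7 CPM with DMSO (−0.44 ± 0.08). The 3 groups did not overlap in either gene and DMSO was highest. The helicase subunit genes MCM3 (−0.10 ± 0.08), MCM4 (−0.08 ± 0.10), MCM6 (0.02 ± 0.11) and MCM7 (−0.14 ± 0.07) did not pass the test against siNC, while MCM2 and MCM5 fell by 0.24 each. E2F1, a factor that drives S-phase genes, was at 22.1 to 24.6 CPM with siSUV39H1, at 20.8 to 26.0 CPM with siNC and at 38.7 to 46.2 CPM with DMSO. The count of 14 falls was 9 with limma on TPM.

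Among G1 genes, 2 of 15 fell and 1 rose, beside 18.6% lower and 15.3% higher over all genes tested. CCND1, cyclin D1, was at 632, 601 and 579 CPM with siSUV39H1, at 1047, 1012 and 1141 CPM with siNC and at 655, 564 and 529 CPM with DMSO (−0.82 ± 0.08). siNC was here the group apart, as the DMSO values overlapped those with siSUV39H1. CDKN2A fell (−0.36 ± 0.10) with DMSO overlapping both groups, a call lost when siSUV39H1 replicate 2 or siNC replicate 2 was left out. The pocket protein gene RBL2 rose (0.33 ± 0.09) with DMSO overlapping siNC.

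**Figure D4:**
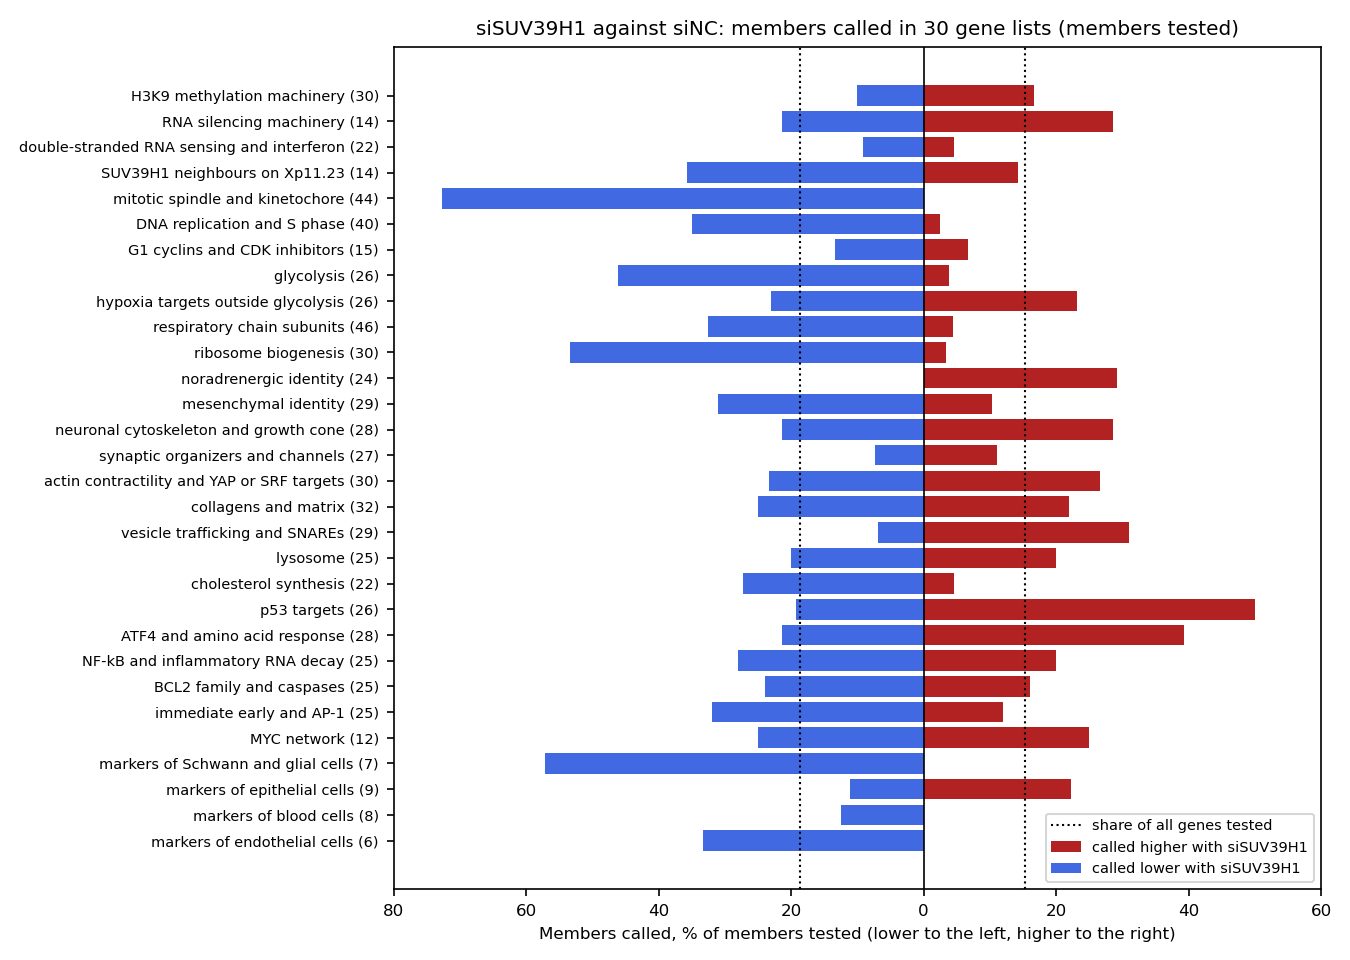
Share of tested members called lower (left, blue) and higher (right, red) with siSUV39H1 against siNC in 30 gene lists, with the number tested in brackets and dotted lines at the shares of all genes tested (18.6% lower and 15.3% higher). The bar of the mitotic list stands for 32 of 44 members on the lower side and that of the p53 list for 13 of 26 on the higher side.

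Glycolysis converts glucose to pyruvate and lactate, and hypoxia factors raise many of its genes through the letters ACGTG in their promoters. Of 26 glycolytic members, 12 fell and 1 rose against siNC (median −0.22), beside 18.6% lower and 15.3% higher over all genes tested. LDHA (chromosome 11, 18394563 to 18408425), which makes lactate from pyruvate, was at 400, 356 and 381 CPM with siSUV39H1, at 1026, 1069 and 957 CPM with siNC and at 1147, 1091 and 1088 CPM with DMSO. LDHA fell by 1.42 ± 0.07 on the log2 scale with DMSO above both siRNA groups, and it holds GTCTTCA 1 time in its 3′ UTR, as printed above. It was the only one of 5 glycolytic carriers of that word to be called lower, and 10 of the 20 other members with a searched 3′ UTR were called lower. LDHB, the other lactate dehydrogenase subunit, was at 243, 229 and 224 CPM with siSUV39H1, at 408, 453 and 364 CPM with siNC and at 380, 391 and 376 CPM with DMSO (−0.82 ± 0.07).

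HK2, an inducible hexokinase, was at 15.1, 15.4 and 14.1 CPM with siSUV39H1, at 26.6, 28.2 and 29.7 CPM with siNC and at 16.9, 15.3 and 14.9 CPM with DMSO (−0.92 ± 0.09). Unlike LDHA, HK2 had DMSO values that overlapped those with siSUV39H1. PDK1, which diverts pyruvate from the mitochondria, fell by 1.10 with DMSO between the groups, and SLC16A3, a lactate exporter, by 0.69 with DMSO between as well. ENO1 (−0.47 ± 0.08) and PKM (−0.31 ± 0.08) fell by less, and the abundant GAPDH (−0.14 ± 0.09), PGK1 (−0.10 ± 0.07) and ALDOA (−0.05 ± 0.09) did not pass the test. PFKL, the liver-type phosphofructokinase, was the member that rose (0.49 ± 0.06), with DMSO above both. The LDHA promoter (chr11:18394313-18394612, plus strand, GRCh38.p14) is shown with its ACGTG matches on either strand in capitals; ACGTG was present in 39.1% of 23 glycolytic promoters, in 27.3% of the 11 of them called lower and in 25.5% of 12164 tested ones.
LDHA promoter: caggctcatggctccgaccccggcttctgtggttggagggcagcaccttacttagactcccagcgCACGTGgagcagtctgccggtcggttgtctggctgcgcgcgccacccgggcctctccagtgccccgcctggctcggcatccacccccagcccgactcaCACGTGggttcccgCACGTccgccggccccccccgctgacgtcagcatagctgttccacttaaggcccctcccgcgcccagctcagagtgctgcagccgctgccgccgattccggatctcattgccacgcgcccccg

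Hypoxia targets outside glycolysis did not move one way, with 6 of 26 higher and 6 lower (median −0.03), although 59.1% of their 22 promoters hold ACGTG. The shares over all genes tested were 15.3% higher and 18.6% lower. STC2, a secreted glycoprotein, was at 8.04, 6.07 and 6.58 CPM with siSUV39H1, at 17.99, 19.3 and 21.8 CPM with siNC and at 15.1, 13.9 and 12.4 CPM with DMSO (−1.51 ± 0.12). VEGFA, the vascular growth factor, fell by 0.64 to a level that overlapped DMSO. ERO1A, an oxidase of the endoplasmic reticulum, was at 59.0, 67.5 and 58.4 CPM with siSUV39H1, at 36.2, 34.4 and 39.4 CPM with siNC and at 43.0, 40.7 and 41.5 CPM with DMSO (0.75 ± 0.08). HIF1A, the oxygen-regulated subunit, was at 98.8 to 128 CPM with siSUV39H1, at 104 to 144 CPM with siNC and at 85.5 to 99.4 CPM with DMSO, and its change of −0.19 ± 0.12 did not pass the test.

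Subunits of the respiratory chain and ATP synthase were lower in 15 of 46 and higher in 2 (median −0.14), beside 18.6% lower and 15.3% higher over all genes tested. NDUFA4 was at 213, 182 and 196 CPM with siSUV39H1, at 275, 311 and 239 CPM with siNC and at 273, 300 and 299 CPM with DMSO (−0.48 ± 0.09). SDHA, a subunit shared with the citric acid cycle, fell by 0.40 ± 0.06 with DMSO highest. The count of 15 falls was 7 without siSUV39H1 replicate 3 or siNC replicate 2, 8 without siSUV39H1 replicate 2 or siNC replicate 1, 21 without siSUV39H1 replicate 1, 22 without siNC replicate 3, and 9 in a fit of the 6 libraries alone, and with limma on TPM 11 fell and 8 rose. By transcript length, 24.2% of genes with transcripts of 344 to 1969 bases were called lower and 13.3% of those with 4819 to 109224 bases, and the part of length in these calls was not tested.

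Ribosome biogenesis genes, which serve the nucleolar assembly of ribosomal RNA, were lower in 16 of 30 and higher in 1 (median −0.25), beside 18.6% lower and 15.3% higher over all genes tested. NHP2, a protein of H/ACA ribonucleoproteins, was at 106, 96.0 and 102 CPM with siSUV39H1, at 169, 189 and 150 CPM with siNC and at 179, 165 and 201 CPM with DMSO (−0.74 ± 0.09). MRTO4, an assembly factor of the large subunit, fell by 0.64 ± 0.09 and its siNC and DMSO values overlapped. NOP2, a ribosomal RNA methyltransferase, was at 67.9, 55.2 and 59.5 CPM with siSUV39H1, at 85.7, 90.4 and 85.4 CPM with siNC and at 83.1, 81.0 and 78.4 CPM with DMSO (−0.52 ± 0.07). The exception, NOLC1, a nucleolar phosphoprotein, was at 127, 116 and 118 CPM with siSUV39H1, at 48.3, 52.5 and 52.5 CPM with siNC and at 135, 114 and 104 CPM with DMSO (1.23 ± 0.09). siNC was the low group for NOLC1 and the other two overlapped.

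MYC, a driver of ribosome biogenesis, was at 19.4, 17.7 and 17.3 CPM with siSUV39H1, at 24.0, 24.6 and 24.7 CPM with siNC and at 36.0, 29.7 and 30.1 CPM with DMSO (−0.43 ± 0.11), a call lost with limma on TPM. MYCN, whose amplification defines high-risk neuroblastoma and is absent from SK-N-SH, was low throughout, at 1.66 to 2.15 CPM with siSUV39H1, at 0.756 to 1.42 CPM with siNC and at 2.53 to 3.85 CPM with DMSO (0.85 ± 0.30, adjusted p = 0.0379). MNT, a MAX partner that opposes MYC, rose by 0.42 ± 0.08 with siNC and DMSO overlapping.

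Part of the noradrenergic identity list was higher with siSUV39H1 than with siNC, and most of it was lower than with DMSO in both siRNA groups. Against siNC, 7 of 24 members rose and 0 fell (median 0.26), whereas against DMSO 21 of 24 were lower with siSUV39H1 (median −0.74) and 23 of 24 with siNC (median −0.92). Over all genes tested, 15.3% were higher and 18.6% lower against siNC, and 25.9% were lower than DMSO with siSUV39H1 and 18.2% with siNC. SCG2, a secretogranin of dense-core vesicles, was at 332, 325 and 286 CPM with siSUV39H1, at 146, 153 and 161 CPM with siNC and at 262, 233 and 234 CPM with DMSO (1.04 ± 0.08). SLC6A2, the noradrenaline transporter, was at 68.9, 66.0 and 69.4 CPM with siSUV39H1, at 43.2, 43.5 and 44.5 CPM with siNC and at 106, 84.0 and 78.1 CPM with DMSO (0.64 ± 0.09). HAND2, a core transcription factor of the lineage, was at 341, 283 and 331 CPM with siSUV39H1, at 230, 246 and 222 CPM with siNC and at 459, 418 and 459 CPM with DMSO (0.45 ± 0.08). Among the 7, SCG2 alone had DMSO between the siRNA groups, and the other 6 had DMSO above both.

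DBH, which makes noradrenaline from dopamine, rose by 0.35 ± 0.08, GATA3 by 0.34 ± 0.09 and TBX2 by 0.42 ± 0.07, while PHOX2A (0.06 ± 0.09), HAND1 (−0.07 ± 0.11) and RET (0.01 ± 0.12) did not pass the test. The count of 7 rises was 12 with a filter of at least 1 CPM in 3 of the 6 libraries and 12 with limma on TPM. RNA of the neuronal cytoskeleton had 8 of 28 members higher and 6 lower, beside 15.3% higher and 18.6% lower over all genes tested. DCX, doublecortin, was at 25.6, 34.6 and 31.1 CPM with siSUV39H1, at 16.4, 12.8 and 17.2 CPM with siNC and at 37.3, 29.2 and 28.4 CPM with DMSO (0.98 ± 0.14). MAP2, a microtubule protein of dendrites, was at 24.9, 41.1 and 34.0 CPM with siSUV39H1, at 18.2, 12.7 and 19.1 CPM with siNC and at 31.3, 26.9 and 23.2 CPM with DMSO (1.00 ± 0.18). For both genes replicate 1 was the lowest siSUV39H1 library and replicate 2 the lowest siNC library. The 6 falls of this list numbered 2 without siSUV39H1 replicate 2 or 3 or siNC replicate 1, 3 without siNC replicate 2, 2 with limma on TPM and 3 in a fit of the 6 libraries alone.

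**Figure D5:**
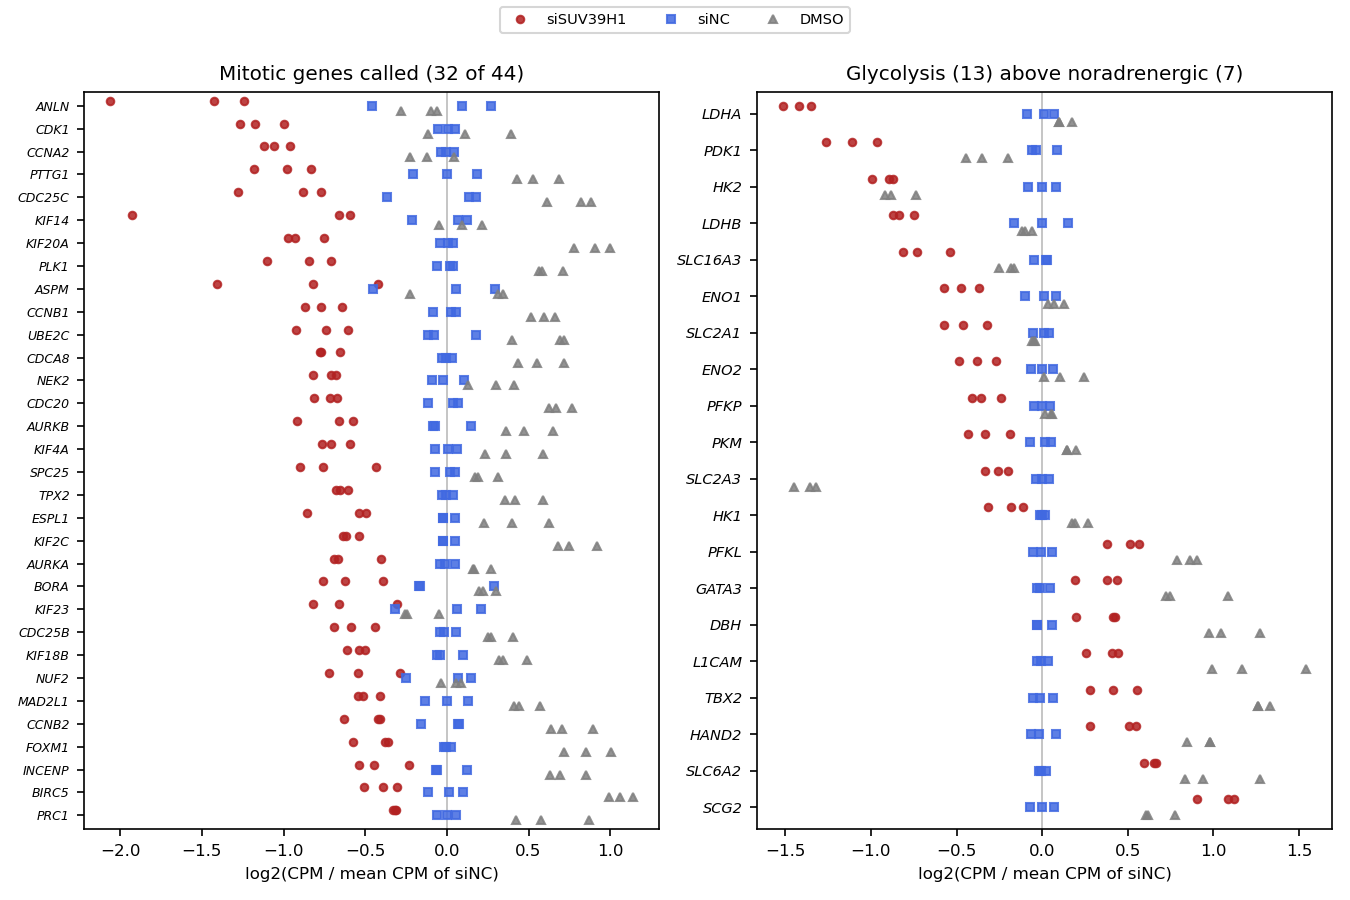
Log2 ratio of the CPM in each library to the mean CPM of siNC for the 32 mitotic genes called (left) and for the glycolytic and noradrenergic genes called (right, 13 above 7), with siSUV39H1 as circles, siNC as squares and DMSO as triangles. DMSO lies on the far side of siNC from siSUV39H1 for many mitotic genes and beyond siSUV39H1 for 6 of the 7 noradrenergic genes.

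NCAM1, a neural adhesion molecule, rose by 0.58 ± 0.08 to 219 to 226 CPM with siSUV39H1, with 141 to 163 CPM with siNC and 134 to 169 CPM with DMSO. Synaptic organizers and channels had 3 of 27 members higher and 2 lower, led by CBLN2 and NPTX1, given above. The shares over all genes tested were 15.3% higher and 18.6% lower. SYT1, the calcium sensor of synaptic vesicles, was at 169, 256 and 218 CPM with siSUV39H1, at 118, 88.0 and 136 CPM with siNC and at 101, 114 and 107 CPM with DMSO (0.91 ± 0.14), so only siSUV39H1 stood apart.

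Mesenchymal identity genes were lower in 9 of 29 and higher in 3 (median −0.11), beside 18.6% lower and 15.3% higher over all genes tested. NOTCH2, a Notch receptor, was at 114, 111 and 121 CPM with siSUV39H1, at 258, 239 and 276 CPM with siNC and at 202, 187 and 154 CPM with DMSO (−1.16 ± 0.09). FOSL1, an AP-1 subunit, was at 127, 104 and 104 CPM with siSUV39H1, at 217, 205 and 216 CPM with siNC and at 143, 145 and 132 CPM with DMSO (−0.93 ± 0.08). WWTR1, the YAP partner TAZ, fell by 0.68 ± 0.08. DMSO lay between the siRNA groups for all 3. COL5A1 rose by 0.70 ± 0.09, at 369 to 429 CPM with siSUV39H1, 244 to 255 CPM with siNC and 264 to 293 CPM with DMSO.

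Collagen and matrix genes split into 7 of 32 higher and 8 lower, near the shares over all genes tested (15.3% higher, 18.6% lower). NID2, a basement membrane linker, was at 194, 177 and 185 CPM with siSUV39H1, at 86.8, 80.4 and 94.7 CPM with siNC and at 93.1, 86.1 and 74.8 CPM with DMSO (1.08 ± 0.08). COL6A3 was at 4.57, 3.67 and 4.72 CPM with siSUV39H1, at 8.55, 8.64 and 10.5 CPM with siNC and at 17.1, 17.1 and 14.6 CPM with DMSO (−1.09 ± 0.14). LOXL2, which cross-links collagen, fell by 0.94 ± 0.08 with DMSO between. Actin and YAP or SRF target genes likewise split, with 8 of 30 higher, led by TPM4, and 7 lower; the 8 rises numbered 5 without replicate 3 of either group. TAGLN2, an actin-binding protein, fell by 0.71 ± 0.08 and its control groups overlapped, and CCN2, a YAP target, was at 201 to 231 CPM with siSUV39H1, 288 to 316 CPM with siNC and 173 to 181 CPM with DMSO (−0.49 ± 0.07).

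Of 29 vesicle trafficking and SNARE genes, 9 were higher and 2 lower (median 0.11), beside 15.3% higher and 18.6% lower over all genes tested, shares that also stand beside the lysosomal and cholesterol counts that follow. Beside STX12, given above, the Golgi syntaxin STX16 rose by 0.51 ± 0.07 with DMSO below both groups. NSF, the ATPase that recycles SNAREs, rose by 0.43 ± 0.07 with DMSO overlapping siNC. STX7, a syntaxin of late endosomes, fell by 0.70 ± 0.09 with DMSO between, a call lost with limma on TPM. Lysosomal genes had 5 of 25 higher and 5 lower (10 and 3 with limma on TPM). LIPA, the acid lipase, which holds GTCTTCA in its 3′ UTR, was at 70.2, 64.7 and 70.6 CPM with siSUV39H1, at 180, 187 and 171 CPM with siNC and at 122, 131 and 121 CPM with DMSO (−1.39 ± 0.07). Cholesterol synthesis had 6 of 22 lower and 1 higher, among them MSMO1 (−0.43 ± 0.07), SC5D (−0.57 ± 0.11) and DHCR7 (−0.40 ± 0.08), each with a siSUV39H1 level within 0.12 of DMSO on the log2 scale. EBP, a sterol isomerase, fell by 0.46 ± 0.12 with overlap between the siRNA groups, and its siSUV39H1 level was −0.81 relative to DMSO. The 6 falls numbered 3 without siNC replicate 2.

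Of 26 p53 targets, 13 were higher and 5 lower (median 0.21), beside 15.3% higher and 18.6% lower over all genes tested. Against DMSO, 21 of 26 were higher with siSUV39H1 (median 0.63) and 20 of 26 with siNC (median 0.56), beside 22.3% and 17% of all genes tested. CDKN1A, the cell cycle inhibitor p21, was at 2163, 1892 and 1990 CPM with siSUV39H1, at 1885, 1966 and 1785 CPM with siNC and at 1147, 1290 and 1292 CPM with DMSO. The 2 siRNA groups overlapped for CDKN1A (0.10 ± 0.08), and both lay above DMSO. SESN2, a stress sensor that restrains mTORC1, was at 131, 109 and 117 CPM with siSUV39H1, at 69.5, 66.8 and 67.5 CPM with siNC and at 47.3, 54.8 and 50.5 CPM with DMSO (0.81 ± 0.08). FDXR, a mitochondrial reductase, was at 120, 117 and 120 CPM with siSUV39H1, at 69.1, 76.3 and 62.7 CPM with siNC and at 71.0, 75.7 and 83.4 CPM with DMSO (0.78 ± 0.08). XPC, a DNA damage sensor, was at 84.1, 83.5 and 82.9 CPM with siSUV39H1, at 59.3, 58.4 and 60.1 CPM with siNC and at 75.4, 73.9 and 74.95 CPM with DMSO (0.49 ± 0.05). These 3 rises had DMSO at 3 different places, below both groups for SESN2, overlapping siNC for FDXR and between for XPC.

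MDM2, the ligase that degrades p53, rose by 0.51 ± 0.17, at 75.7, 144 and 118 CPM with siSUV39H1, at 81.9, 64.1 and 91.4 CPM with siNC and at 46.1, 52.4 and 52.95 CPM with DMSO, with overlap between the siRNA groups. TP53INP1, a p53-induced nuclear protein, fell by 1.12 ± 0.11, and FAS, a death receptor, by 0.53 ± 0.12. For TP53INP1 DMSO lay between the siRNA groups, with siNC 0.63 above it and siSUV39H1 0.49 below it on the log2 scale. The count of 13 rises was 8 without siSUV39H1 replicate 2. Of the BCL2 family and caspases, 4 of 25 rose and 6 fell, beside 15.3% higher and 18.6% lower over all genes tested. BBC3, the pro-death protein PUMA, was at 59.7, 53.8 and 55.9 CPM with siSUV39H1, at 31.9, 35.0 and 26.4 CPM with siNC and at 24.9, 25.9 and 29.7 CPM with DMSO (0.86 ± 0.10). BAK1, which permeabilizes mitochondria in apoptosis, fell by 0.74 ± 0.09 with DMSO between the siRNA groups.

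ATF4 is the stress-induced factor of amino acid synthesis and import. Of 28 genes of its response, 11 rose, SESN2 among them, and 6 fell (median 0.18), beside 15.3% higher and 18.6% lower over all genes tested. ATF5, a related factor, was at 46.9, 39.0 and 40.5 CPM with siSUV39H1, at 96.3, 94.6 and 87.5 CPM with siNC and at 66.9, 70.6 and 69.5 CPM with DMSO (−1.14 ± 0.08), and it overlaps NUP62 and IL4I1. ALDH18A1, an enzyme of proline synthesis, was at 42.6, 39.4 and 45.2 CPM with siSUV39H1, at 81.7, 80.5 and 79.0 CPM with siNC and at 103, 98.8 and 98.6 CPM with DMSO (−0.92 ± 0.07). Both ATF5 and ALDH18A1 hold GTCTTCA in the 3′ UTR.

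In the list of NF-kB and inflammatory RNA decay genes, more members were called against DMSO than between the siRNAs. Against siNC, 5 of 25 rose (3 without siNC replicate 2) and 7 fell (median 0.04), whereas against DMSO 21 of 25 were higher with siSUV39H1 (median 0.96) and 19 of 25 with siNC (median 1.11). Over all genes tested, 15.3% rose and 18.6% fell against siNC, and 22.3% were higher than DMSO with siSUV39H1 and 17% with siNC. NFKBIZ, an atypical I-kappa-B protein that induces acute-phase genes, was at 80.6, 88.2 and 74.2 CPM with siSUV39H1, at 40.1, 34.6 and 44.4 CPM with siNC and at 21.1, 22.7 and 19.8 CPM with DMSO (1.03 ± 0.09). RELB, a subunit of the non-canonical branch, was at 58.5, 52.9 and 49.4 CPM with siSUV39H1, at 81.3, 82.8 and 81.7 CPM with siNC and at 26.6, 27.8 and 31.2 CPM with DMSO (−0.61 ± 0.07). The chemokine CCL2 was at 445, 409 and 337 CPM with siSUV39H1, at 602, 624 and 567 CPM with siNC and at 99.9, 96.8 and 102 CPM with DMSO (−0.59 ± 0.09). NFKBIZ and ZC3H12A thus rose while RELB and CCL2 fell, and DMSO was lowest for all 4. IL6 (0.53 ± 0.28), CXCL8 (0.22 ± 0.24) and NFKBIA (0.04 ± 0.07) did not pass the test between the siRNAs.

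Interferon and double-stranded RNA sensing genes were called in 3 of 22 cases, beside 33.9% of all genes tested. IFIT3, which overlaps LIPA in the annotation, fell by 0.62 ± 0.13 with DMSO below both siRNA groups. Immediate early and AP-1 genes had 8 of 25 lower and 3 higher, beside 18.6% lower and 15.3% higher over all genes tested. EGR1 was at 22.9, 18.6 and 17.1 CPM with siSUV39H1, at 9.38, 7.74 and 8.82 CPM with siNC and at 21.0, 19.0 and 18.7 CPM with DMSO (1.18 ± 0.11), so siNC was the group apart. DUSP5, an ERK phosphatase, fell by 1.58 ± 0.13 and JUN by 0.76 ± 0.07, both with DMSO between.

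Of 30 genes that write, read or erase H3K9 methylation, 3 fell, SUV39H1 among them, and 5 rose (median 0.11). Over all genes tested, 18.6% fell and 15.3% rose, shares that also stand beside the RNA-silencing and Xp11.23 counts that follow. UHRF1, which reads this mark and recruits DNMT1, was at 32.4, 30.6 and 30.3 CPM with siSUV39H1, at 46.2, 45.0 and 49.6 CPM with siNC and at 63.5, 52.8 and 53.6 CPM with DMSO (−0.59 ± 0.08). PRDM2, a methyltransferase family member, was at 30.3, 35.3 and 34.1 CPM with siSUV39H1, at 21.4, 19.2 and 23.4 CPM with siNC and at 27.1, 22.8 and 19.7 CPM with DMSO (0.64 ± 0.12). EHMT1, a writer of H3K9 dimethylation, rose by 0.35 ± 0.07 to the DMSO level. The HP1 genes CBX1 (0.00 ± 0.06), CBX3 (0.16 ± 0.10) and CBX5 (0.10 ± 0.08) did not pass the test, and neither did EHMT2 (0.07 ± 0.07). The RNA-silencing genes AGO4 (0.79 ± 0.10), DROSHA (0.45 ± 0.07) and AGO1 (0.36 ± 0.08) rose and XPO5 fell (−0.33 ± 0.07). DMSO overlapped siSUV39H1 for DROSHA, lay between the siRNA groups for AGO1 and overlapped siNC for XPO5. The siSUV39H1 level was 0.06 above DMSO for DROSHA and 0.10 above for AGO1, and neither difference passed the test. Of 14 RNA-silencing genes, 4 were higher and 3 lower, and 1 fall was left without siSUV39H1 replicate 2 or 3 or siNC replicate 1 or 2. The 5 rises of the H3K9 list numbered 3 without siSUV39H1 replicate 3 and 2 without siNC replicate 2. Genes next to SUV39H1 on Xp11.23 had 5 of 14 members lower, PORCN most (−0.62 ± 0.12, DMSO overlapping siNC), and 2 higher. The 5 falls numbered 3 without siSUV39H1 replicate 2 or 3 or siNC replicate 1 and 2 without siNC replicate 2. The 2 rises numbered 0 to 4 over the 6 fits that left out 1 library.

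Markers of other cell types differed by list. The 7 tested Schwann and glial markers changed by −0.93 to −0.28 against siNC, with a median of −0.81, beside a median of 0.01 over all genes tested. The shares over all genes tested, 15.3% higher and 18.6% lower against siNC, stand beside the counts that follow. The summed level of 12 Schwann and glial markers was 30.7 to 32 CPM with siSUV39H1, 56.3 to 59.3 CPM with siNC and 55.2 to 56.5 CPM with DMSO, with CDH19 at 0, and PMP22 made up most of it at 24.4 to 25.8 CPM, 46.0 to 47.6 CPM and 47.9 to 49.2 CPM in those groups. PMP22, which also acts outside myelin, fell by 0.89 ± 0.07, and 4 of 7 tested markers fell in all, with PLLP and ERBB3 at or below 5.53 CPM in every siRNA library. With DMSO, PLLP was at 0.844 to 1.06 CPM, below both siRNA groups. ERBB3 was at 2.37 to 3.20 CPM with DMSO, overlapping siSUV39H1. The 12 epithelial markers summed to 143 to 165 CPM with siSUV39H1, 112 to 132 CPM with siNC and 104 to 123 CPM with DMSO, with KRT14 at 0, and 2 of 9 tested rose, ELF3 and KRT8, while KRT7 fell. The DMSO values of KRT7 overlapped those with siSUV39H1. Endothelial markers summed to 8.19 to 9.89 CPM, 10.9 to 11.5 CPM and 12.4 to 13.5 CPM in siSUV39H1, siNC and DMSO libraries, and 2 of 6 fell. The 11 blood markers summed to 95.2 to 115 CPM with siSUV39H1, 110 to 119 CPM with siNC and 161 to 167 CPM with DMSO, with CD3E at 0, and CSF1R was the 1 member of 8 that fell. DMSO lay above both siRNA groups for CSF1R. The part of other cells in the results was not tested.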

How the data were processed

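Per the labels' protocols, total RNA came from a Trizol extraction and libraries followed a DNBSEQ protocol. Each gene has an expected count, a TPM and an FPKM value in every deposited library table, per the file headers. Without stating their roles, the submitters' processing notes list hg38, Bowtie2, DESeq2 1.4.5 and RSEM 1.3.1. For annotation, strandedness and read filters: not given in the sources used here. FPKM and the authors' averages were not used; TPM served 1 alternative, limma-trend on log2(TPM + 1). No column of a single library stayed unmapped (0 columns).

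Expected counts were rounded, filtered with filterByExpr, scaled by TMM and fitted by edgeR 4.0.16 (R 4.3.3; quasi-likelihood, 12 libraries, 1 mean per group, 8 residual degrees of freedom, biological coefficient of variation 8.87%). p-values were Benjamini-Hochberg adjusted over 15051 genes. Levels are CPM, and changes are log2 values ± SE with n = 3 libraries a group. The method was tested on simulated data. No library copied another (chi-square per gene of 4.69 to 17.9). Coordinates are RefSeq's, with 18574 of 18739 Entrez identifiers matched.

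The members and 30 gene lists were chosen with earlier results of these data known. Genes named are SUV39H1, SUV39H2, AURKA and ZC3H12A, the 12 largest called changes each way (mean of at least 5 CPM, no overlap), 6 each way against both controls, and up to 4 called members per list with the smallest p. Other list members and the carriers of the 7-base words were picked after their values were seen. Alternatives were RLE, upper-quartile or total scaling, other filters, DESeq2 1.42.0, limma 3.58.1 (voom and TPM), 6 or 9 libraries, the replicate number as a block and leaving out each library. Some members named by these rules are not reported here.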

Additional observations from a re-analysis of the deposited data

How the results depend on the processing

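The fall of SUV39H1 was past the threshold under every alternative run, between −1.64 and −1.30 on the log2 scale, and between −1.64 and −1.54 when 1 library was left out. The number of genes called (5109) ranged from 3868 to 5463 over the alternatives, both ends when 1 library was left out, with DESeq2 at 4949 and limma-voom at 5120. Leaving out 1 library gave 1755 to 2517 genes higher, 2076 to 2946 lower, 152 to 211 at least 2-fold higher and 312 to 353 at least 2-fold lower. On TPM, 83 genes were called at least 2-fold higher and 110 at least 2-fold lower, and the cause of the TPM difference was not tested. Without carriers of the 7-base words 223 were at least 2-fold lower, where fewer genes were tested. The genes left out there included 98 GTCTTCA carriers called at least 2-fold lower in the main fit, so that count is no check of the calls. Of 2349 values of the 132 named genes under the alternatives, 2325 kept direction and call, 23 lost the call, 1 gained it (SUV39H2) and 0 reversed; 11 genes lost a call somewhere, 7 of them when 1 library was left out. With a replicate block, 4465 genes were called (1997 higher, 2468 lower); deviations of same-numbered libraries correlated at −0.05, −0.27 and 0.16, so the numbers were not taken to pair the samples. Low counts limit the endothelial markers, summed at 8.19 to 13.5 CPM, and 3 libraries a group limit every p.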
